A study of Homo sapiens with 15 samples.

Results

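CLDN8, AQP3 and SGK1 are 3 genes of epithelial transport, taken by symbol from the 14361 genes that carry a named probe set on the array. Each has 1 probe set. They were followed in ZR-75-1 cells, an established human line from a luminal breast cancer that expresses the estrogen receptor, kept in full serum medium. Cells received 10 nM of MPA, PROG, DHT or DEX for 6 h, or vehicle, which was 0.1% ethanol per the treatment protocol while the sample titles also call these arrays untreated. MPA is read here as medroxyprogesterone acetate, a synthetic progestin, PROG as progesterone, DHT as dihydrotestosterone, an androgen, and DEX as dexamethasone, a synthetic glucocorticoid. Each of the 5 groups has 3 arrays, and nothing in the labels says that these were separate cultures, so p-values measure the spread between arrays, which may be technical.

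In an epithelium, water, glycerol and ions cross either between cells, through tight junctions, or through channels and pumps in the cell membrane. CLDN8 is a claudin, a membrane protein of the tight junction strand that sets which ions pass between cells, and in the distal nephron it works as part of the barrier on which salt reabsorption depends. AQP3 is an aquaglyceroporin that carries water and glycerol across the basolateral membrane of kidney collecting duct, skin and gland epithelia. SGK1, the serum- and glucocorticoid-regulated kinase, is a classic early target of corticosteroid receptors in the kidney, where it keeps the epithelial sodium channel at the surface by phosphorylating the ubiquitin ligase NEDD4L. The receptors for glucocorticoids, mineralocorticoids, progesterone and androgens bind closely related DNA elements, an inverted repeat of a 6-base core.

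That element was looked for in the RefSeq promoter windows (GRCh38.p14), which run from 250 bases before to 50 after a gene's start. Windows were found for 2 of the 3 members, AQP3 and SGK1, the latter with 3 starts. The full element, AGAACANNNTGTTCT, with up to 2 mismatches in its 12 fixed letters, was in none of these 4 windows, and in 1.4% of all 35116 windows. Its core, AGAACA, searched on both strands, was in 1 of the SGK1 windows and in 14.8% of all windows. The TATA box sequence TATAAA, a motif added after the values were seen and also searched on both strands, was in all 4 windows of the members and in 11.5% of all. The 4 windows come from 2 genes, with 3 from SGK1, so this count is no result about the members. In the SGK1 windows not printed here the match was on the opposite strand, at -27 and -96. The AQP3 window (chr9:33447544-33447843, minus strand) and the SGK1 window with the core (chr6:134177812-134178111, minus strand) are shown because they are the regulatory sequence at hand for a member that responded and for the corticosteroid target that stayed dim. Capitals mark TATAAA, which begins at -32 in AQP3 and at -15 in SGK1, and AGAACA, which begins at 6 in SGK1. Matches describe letters only, and binding was not measured. Sequence outside the windows was not searched, so a missing match does not show that a gene lacks the element.

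AQP3: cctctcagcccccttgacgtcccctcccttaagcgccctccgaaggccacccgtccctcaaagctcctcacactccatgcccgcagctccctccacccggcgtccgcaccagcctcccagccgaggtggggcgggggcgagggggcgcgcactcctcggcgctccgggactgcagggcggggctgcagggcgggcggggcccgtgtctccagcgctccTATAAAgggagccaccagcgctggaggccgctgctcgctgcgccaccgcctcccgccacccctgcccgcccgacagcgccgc

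SGK1: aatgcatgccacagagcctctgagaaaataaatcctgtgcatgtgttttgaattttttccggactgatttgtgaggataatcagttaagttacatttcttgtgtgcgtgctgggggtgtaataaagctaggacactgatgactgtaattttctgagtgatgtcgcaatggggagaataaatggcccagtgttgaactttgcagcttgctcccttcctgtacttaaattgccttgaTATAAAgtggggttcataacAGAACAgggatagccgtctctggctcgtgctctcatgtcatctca

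The first comparison asked how far each compound moved the 3 genes from vehicle after 6 h. CLDN8 rose with all 4 compounds, about 4-fold with MPA and with DHT, less with PROG and least with DEX. AQP3 rose with MPA, DHT and PROG. SGK1 was dim on every array, with a small called difference for MPA and PROG. Levels are the deposited values, taken to be log2. Changes are log2 differences ± the standard error of limma's fit (3 arrays in each group). The word called means an adjusted p under 0.05 over all 14841 named probe sets. Whether the SGK1 probe set reports SGK1 RNA in these cells cannot be settled from the values, so its place in the counts that follow is by name only. All 3 members were called higher with MPA, against 4.11% of all named probe sets, and all 3 with PROG, against 2.43%. With DHT 2 of 3 were higher against 0.775%, and with DEX 1 of 3 against 0.957%. No member was called lower, where the shares over all named probe sets were 1.82% for MPA, 0.391% for PROG, 0.115% for DHT and 0.148% for DEX. The members were chosen with results of these arrays known, so their counts are a description, and the 4 comparisons share the vehicle arrays.

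CLDN8 lay at 5.60, 5.68 and 5.38 on the vehicle arrays, a mean of 5.55 ± 0.155 (SD, n = 3) and above the array medians of 3.69 to 3.73. With MPA it was 7.62, 7.60 and 7.49, and with DHT 7.63, 7.67 and 7.44. The lowest MPA array was 1.81 and the lowest DHT array 1.76 log2 units above the highest vehicle array, and the MPA and DHT arrays overlapped each other. PROG gave 6.91, 6.97 and 6.83, and DEX gave 6.29, 6.23 and 6.47. These groups formed steps of their own between vehicle and MPA, without overlap with any other group. In folds, CLDN8 rose 4.05-fold with MPA (95% interval 3.56 to 4.59, log2 change 2.02 ± 0.085, adjusted p = 2.15e-09) and 4.07-fold with DHT (3.59 to 4.63, 2.03 ± 0.085, adjusted p = 1.00e-08). The rise was 2.55-fold with PROG (2.25 to 2.89, 1.35 ± 0.085, adjusted p = 2.88e-07) and 1.71-fold with DEX (1.51 to 1.95, 0.78 ± 0.085, adjusted p = 2.12e-04). On the log2 scale PROG thus reached 66.9% and DEX 38.5% of the MPA change. All 4 calls held under each alternative setting and without any 1 array.

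AQP3 was at 6.04, 5.67 and 6.01 on the vehicle arrays, a mean of 5.91 ± 0.206 (SD, n = 3), also above the array medians. With MPA it was 7.36, 7.48 and 7.41, the highest group, clear of every other array. PROG gave 6.83, 6.90 and 6.87 and DHT 6.95, 6.85 and 7.24. The PROG and DHT arrays overlapped, and all 6 of them lay above the vehicle and DEX arrays. DEX gave 6.12, 6.32 and 6.43, and its lowest array was 0.08 above the highest vehicle array. AQP3 thus rose 2.85-fold with MPA (95% interval 2.42 to 3.35, log2 change 1.51 ± 0.11, adjusted p = 4.00e-07), 2.15-fold with DHT (1.83 to 2.53, 1.11 ± 0.11, adjusted p = 1.07e-04) and 1.95-fold with PROG (1.65 to 2.29, 0.96 ± 0.11, adjusted p = 7.82e-05). The DEX difference of 0.38 ± 0.11 (interval 0.15 to 0.62) was not called, adjusted p = 0.162. As a share of the MPA change on the log2 scale, DHT gave 73.3%, PROG 63.6% and DEX 25.4%.

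**Figure D1:**
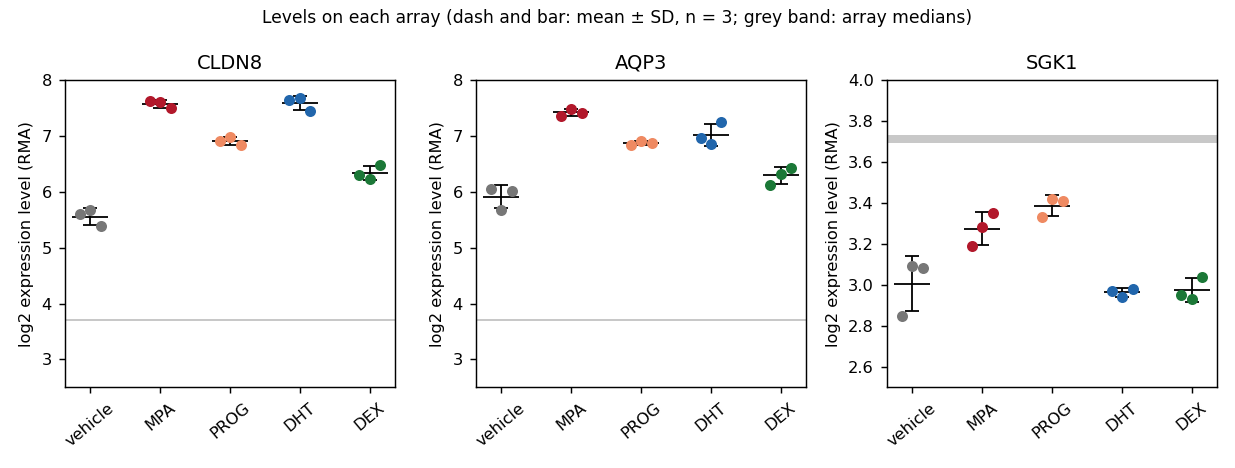
Log2 expression level of CLDN8, AQP3 and SGK1 on each of the 15 arrays by group, with the mean ± SD (n = 3) and the array medians as a grey band. CLDN8 and AQP3 lie above the band in every group and rise from vehicle to MPA, while all SGK1 arrays lie between 2.85 and 3.42, below the band of 3.69 to 3.73; the SGK1 axis is expanded.

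SGK1 was under its array's median on all 15 arrays. The vehicle arrays gave 2.85, 3.09 and 3.08, a mean of 3.01 ± 0.136 (SD, n = 3), which is also under the arrays' lower quartiles of 3.19 to 3.22. DHT (2.97, 2.94 and 2.98) and DEX (2.95, 2.93 and 3.04) fell within the vehicle range. The DEX difference was -0.03 ± 0.064 (interval -0.17 to 0.10, adjusted p = 0.908) and the DHT difference -0.04 ± 0.064 (interval -0.18 to 0.09, adjusted p = 0.888). At a signal this dim, a missing call does not show that SGK1 RNA did not change. PROG (3.33, 3.42 and 3.41) and MPA (3.19, 3.28 and 3.35) were above all vehicle arrays. The PROG difference was 0.38 ± 0.064, adjusted p = 0.00294, and the MPA difference 0.27 ± 0.064, adjusted p = 0.0210. Without vehicle 1, MPA 2 or MPA 3 the MPA call ended (adjusted p = 0.0817, 0.0568 and 0.0939), and in fits of 2 groups only both calls ended (adjusted p = 0.156 for MPA and 0.0596 for PROG). RefSeq lists 5 curated SGK1 transcripts, and which of them the probe set reads was not tested.

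The second comparison set the compounds against each other at the same dose and time, in 6 pairs. CLDN8 separated 5 of the pairs and did not separate MPA from DHT. AQP3 had 3 called pairs, all of them with DEX. SGK1 had 4 called pairs, with the progestins above DHT and DEX. Members called, beside the share of all named probe sets called in either direction, were 1 of 3 for MPA against PROG (0.29%), 1 of 3 for MPA against DHT (3.51%) and 3 of 3 for MPA against DEX (4.06%). They were 2 of 3 for PROG against DHT (1.71%), 3 of 3 for PROG against DEX (1.42%) and 2 of 3 for DHT against DEX (0.654%).

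For CLDN8 the order of group means was DHT (7.58), MPA (7.57), PROG (6.90), DEX (6.33) and vehicle (5.55). The first neighbours, DHT and MPA, differed by less than their spread, with MPA minus DHT at -0.01 ± 0.085 (interval -0.19 to 0.17, adjusted p = 0.980), a fold of 0.993 with limits of 0.875 and 1.13. MPA exceeded PROG, from which it differs by an added methyl and an acetoxy group, by 0.67 ± 0.085 (1.59-fold, interval 1.40 to 1.80, adjusted p = 0.00364). PROG was lower than DHT (PROG minus DHT -0.68 ± 0.085, adjusted p = 4.31e-04) and higher than DEX (0.57 ± 0.085, adjusted p = 0.00222). MPA and DHT exceeded DEX by 1.24 ± 0.085 and 1.25 ± 0.085 (adjusted p = 7.24e-07 and 6.20e-06). None of these 5 calls was lost under any alternative setting or without any 1 array.

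The AQP3 means ran MPA (7.42), DHT (7.01), PROG (6.87), DEX (6.29) and vehicle (5.91). MPA was above DHT by 0.40 ± 0.11 (interval 0.17 to 0.64, adjusted p = 0.0630) and above PROG by 0.55 ± 0.11 (interval 0.32 to 0.78, adjusted p = 0.0559). Neither was called, although the MPA arrays lay above all arrays of both groups. Without DHT 3, the highest DHT array, MPA minus DHT was 0.52 with adjusted p = 0.0147. DHT and PROG, the next neighbours, did not differ beyond their spread (PROG minus DHT -0.15 ± 0.11, interval -0.38 to 0.09, adjusted p = 0.768). That value was -0.033 without DHT 3 and -0.23 without DHT 2, so the size of the step from DHT to PROG rests on single arrays. AQP3 was lower with DEX than with MPA (MPA minus DEX 1.13 ± 0.11, adjusted p = 1.76e-05), DHT (DHT minus DEX 0.72 ± 0.11, adjusted p = 0.00465) and PROG (PROG minus DEX 0.58 ± 0.11, adjusted p = 0.0133). The PROG call ended without DEX 1, PROG 2 or PROG 3 (adjusted p = 0.0715, 0.0635 and 0.0503), and the DHT call in a fit of those 2 groups only (adjusted p = 0.0927).

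Among the SGK1 means PROG (3.39) and MPA (3.27) stood first and overlapped (MPA minus PROG -0.11 ± 0.064, adjusted p = 0.684). Vehicle (3.01), DEX (2.97) and DHT (2.96) followed and overlapped one another. PROG exceeded DHT by 0.42 ± 0.064 (adjusted p = 0.00193) and DEX by 0.41 ± 0.064 (adjusted p = 0.00308). MPA exceeded DHT by 0.31 ± 0.064 (adjusted p = 0.0115), a call lost without MPA 3 (adjusted p = 0.0593). MPA minus DEX was 0.30 ± 0.064 (adjusted p = 0.0137), a call lost without DEX 1, DEX 2 or MPA 3 (adjusted p = 0.0544, 0.0619 and 0.0654). All of these are differences between levels under the array medians.

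**Figure D2:**
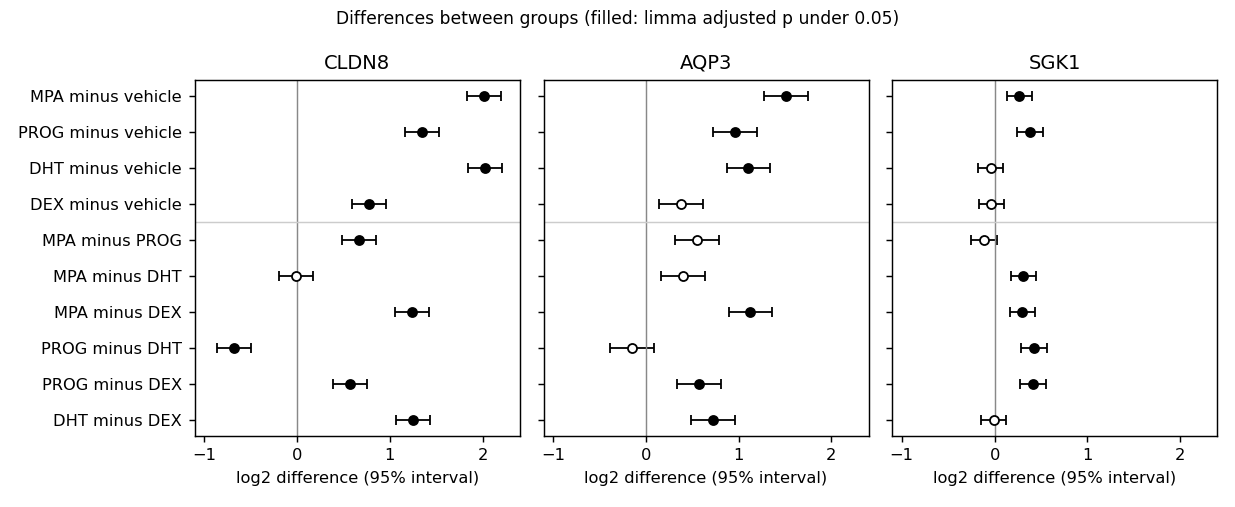
Log2 differences between groups for the 3 genes, first group minus second, with 95% intervals from limma, filled where the adjusted p is under 0.05. CLDN8 is called in 9 of 10 differences, MPA minus DHT being the exception at -0.01, while AQP3 is called in 6 and SGK1 in 6.

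The levels of CLDN8 and AQP3 over the 15 arrays had a Pearson r of 0.92, and within groups, after each group mean was taken off, r was -0.39. SGK1 had r = 0.32 with CLDN8 and 0.49 with AQP3. The genes most like CLDN8 over the 15 arrays, among probe sets over the array medians in at least 1 group, were TTI1, a partner of PIKK-family kinases (r = 0.955), UGDH, the enzyme that makes UDP-glucuronate (r = 0.955), and PARM1, an androgen-regulated mucin-like protein (r = 0.948). TTI1 changed by 0.22 ± 0.040 with MPA, 0.15 ± 0.040 with PROG, 0.20 ± 0.040 with DHT and 0.06 ± 0.040 with DEX. These changes were far smaller than those of CLDN8. The PROG and DEX differences of TTI1 were not called (adjusted p = 0.0588 and 0.673). Its MPA call ended in 1 of 14 alternatives and its DHT call in 7. PARM1 was not called with DEX (0.18 ± 0.047, adjusted p = 0.120). UGDH had the flat top of CLDN8, with mean levels of 11.53 with MPA, 11.51 with DHT, 11.35 with PROG, 11.30 with DEX and 10.96 with vehicle. Unlike in CLDN8, the UGDH differences of PROG from MPA, DHT and DEX were not called (adjusted p = 0.190, 0.170 and 0.822). The MPA and DHT arrays still lay above all PROG arrays, in the same direction as for CLDN8. MPA minus PROG was 0.18 ± 0.047 (interval 0.08 to 0.28) and PROG minus DHT -0.16 ± 0.047 (interval -0.26 to -0.06). PROG minus DEX was 0.05 ± 0.047, and those arrays overlapped. Most like AQP3 were PRR15 (r = 0.977), PWWP3B (r = 0.968) and the keratin gene KRT4 (r = 0.960). PWWP3B changed by 1.44 ± 0.070 with MPA, 0.88 ± 0.070 with DHT, 0.76 ± 0.070 with PROG and 0.37 ± 0.070 with DEX. The DEX call of PWWP3B (adjusted p = 0.0205) ended without vehicle 2, vehicle 3 or any 1 DEX array. It also ended in the fit of 2 groups only (adjusted p = 0.0809). SGK1 was closest to LYPD3 (r = 0.933), GINS2, a DNA replication factor (r = 0.931), and ACOT6, an acyl-CoA thioesterase family gene (r = 0.929). ACOT6 rose by 1.38 ± 0.12 with MPA and 1.41 ± 0.12 with PROG, and was at 0.08 ± 0.12 with DHT and -0.10 ± 0.12 with DEX. The r values are descriptions over arrays that share their groups.

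Of the 23 claudins, all with a named probe set, 11 were over the array medians in at least 1 group. For the others neither a change nor its absence can be read. CLDN8 was called with every compound, and the list had 2 genes called higher with MPA and with PROG and 1 with DHT and with DEX, beside 4.11%, 2.43%, 0.775% and 0.957% of all named probe sets. These counts include CLDN8, which was chosen with its results known, and are no result about the list. CLDN7, another tight junction claudin, rose by 0.18 ± 0.037 with MPA (adjusted p = 0.00881), a call lost in the fit of 2 groups only (adjusted p = 0.0959). With PROG it was 0.16 ± 0.037 higher (adjusted p = 0.0358), and leaving out any single array of the 6 ended that call (adjusted p = 0.0556 to 0.140). The other 21 claudins were not called, and the 22 other than CLDN8 lay between -0.25 and 0.18 with MPA and between -0.16 and 0.15 with DHT. CLDN4, a partner of CLDN8 in kidney tight junctions, was at 5.51 with vehicle and 5.52 with MPA. The median change of the list was 0.003 with MPA, beside -0.003 over all named probe sets.

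Of 16 measured genes for aquaporins and glycerol handling, only AQP3 was called with MPA, PROG or DHT, and none with DEX. The shares of all named probe sets called higher were 4.11%, 2.43%, 0.775% and 0.957%, so 1 gene of 16 is no result about the list. The 15 others lay between -0.25 and 0.14 with MPA and between -0.12 and 0.10 with DHT. The median of the list was 0.025 with MPA and 0.000 with DHT. AQP3 and AQP11 were 2 of only 5 list genes over the array medians in a group, so for most aquaporins neither a change nor its absence can be read.

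**Figure D3:**
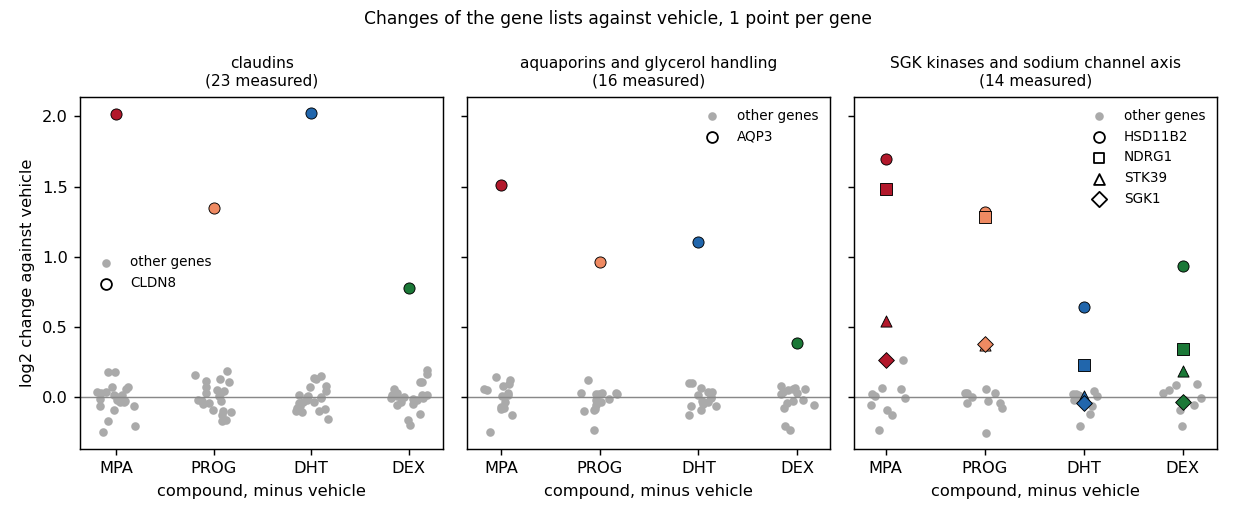
Log2 change against vehicle for each measured gene of 3 lists, 1 point per gene and compound, with the named genes in colour and the others in grey. CLDN8 stands at 2.02 with MPA where the other claudins lie between -0.25 and 0.18, and AQP3 at 1.51 where the others of its list lie between -0.25 and 0.14. Only 11 of 23 claudins and 5 of 16 genes of the aquaporin list were over the array medians in a group.

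In the list of SGK kinases and the sodium channel axis, 14 of 27 genes had a named probe set, and the sodium channel subunits and NEDD4L were not analysed here. SGK1, HSD11B2, NDRG1 and STK39 were the 4 called higher with MPA and with PROG, and 1 (HSD11B2) was with DHT and with DEX. The shares of all named probe sets called higher with MPA, PROG, DHT and DEX were 4.11%, 2.43%, 0.775% and 0.957%. None of the list was called lower, beside shares of 1.82%, 0.391%, 0.115% and 0.148%, which is no result about the list. List medians were 0.040, 0.032, 0.008 and 0.015 in the same order. The list was chosen with earlier results known, so its counts are a description. SGK1 is in these counts, and both of its calls ended in fits of 2 groups only. HSD11B2, which inactivates cortisol and so protects the mineralocorticoid receptor, was the gene called with all 4 compounds. It was at 7.26, 7.38 and 7.18 with vehicle, 9.04, 8.95 and 8.93 with MPA, 8.58, 8.72 and 8.47 with PROG, 8.17, 8.20 and 8.25 with DEX and 7.87, 7.92 and 7.96 with DHT. Its PROG and DHT steps ran opposite to those of CLDN8, as PROG minus DHT was 0.67 ± 0.065 for HSD11B2 (adjusted p = 4.02e-05) and -0.68 ± 0.085 for CLDN8. NDRG1, a substrate of SGK1, was at 4.93, 5.17 and 4.89 with vehicle, 7.01, 6.03 and 6.40 with MPA, 6.42, 6.14 and 6.27 with PROG, 5.16, 5.21 and 5.30 with DHT and 5.28, 5.32 and 5.42 with DEX. Both progestin groups lay above all other arrays and overlapped each other. NDRG1 rose by 1.48 ± 0.17 with MPA (adjusted p = 5.76e-05) and 1.28 ± 0.17 with PROG (adjusted p = 4.22e-04), and differed between PROG and DHT by 1.05 ± 0.17 (adjusted p = 0.00406). STK39, the kinase SPAK that acts on sodium-chloride cotransporters, was at 10.17, 10.15 and 10.25 with vehicle, 10.67, 10.71 and 10.81 with MPA, 10.56, 10.55 and 10.58 with PROG, 10.17, 10.18 and 10.24 with DHT and 10.37, 10.33 and 10.43 with DEX. Its DHT arrays lay within the vehicle range. STK39 rose by 0.54 ± 0.047 with MPA (adjusted p = 2.85e-06) and 0.37 ± 0.047 with PROG (adjusted p = 2.16e-04) and was at 0.01 ± 0.047 with DHT, a sign that turned under quantile normalization and without DHT 3, vehicle 1 or vehicle 2. With DEX it was 0.19 ± 0.047 higher, not called (adjusted p = 0.0904), although its DEX arrays lay above all vehicle arrays by 0.08 or more, and the eBayes trend and the replicate block each called it (adjusted p = 0.0164 and 0.0429).

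Tight junction partners, 15 of 20 measured, had 2 calls with MPA, 1 with PROG and 0 with DHT or DEX, all higher, and a median change of -0.030 with MPA. With 4.11% of all named probe sets called higher with MPA and 2.43% with PROG, these counts are no result about the list. MARVELD3, a membrane protein of the junction, was at 6.95, 6.89 and 6.81 with vehicle, 7.20, 7.39 and 7.27 with MPA and 7.23, 7.31 and 7.31 with PROG, without overlap with vehicle. It rose by 0.40 ± 0.065 with MPA (adjusted p = 0.00113) and 0.40 ± 0.065 with PROG (adjusted p = 0.00235). PARD6A, a polarity protein, was the other MPA call (0.25 ± 0.065, adjusted p = 0.0342), lost without vehicle 1, vehicle 2 or MPA 3. It was lost too in the fit of 2 groups only (adjusted p = 0.144) and with all probe sets tested (adjusted p = 0.0550). Median centring (adjusted p = 0.0606) and the replicate block (adjusted p = 0.0514) also ended it. In the list of sodium, potassium and chloride transport 6 of 35 genes were measured, all of the FXYD family of sodium pump regulators. Only 3 of them were over the array medians in a group, and 0 were called with any compound. The shares of all named probe sets called higher were 4.11% (MPA), 2.43% (PROG), 0.775% (DHT) and 0.957% (DEX), so this count too is no result about the list.

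**Figure D4:**
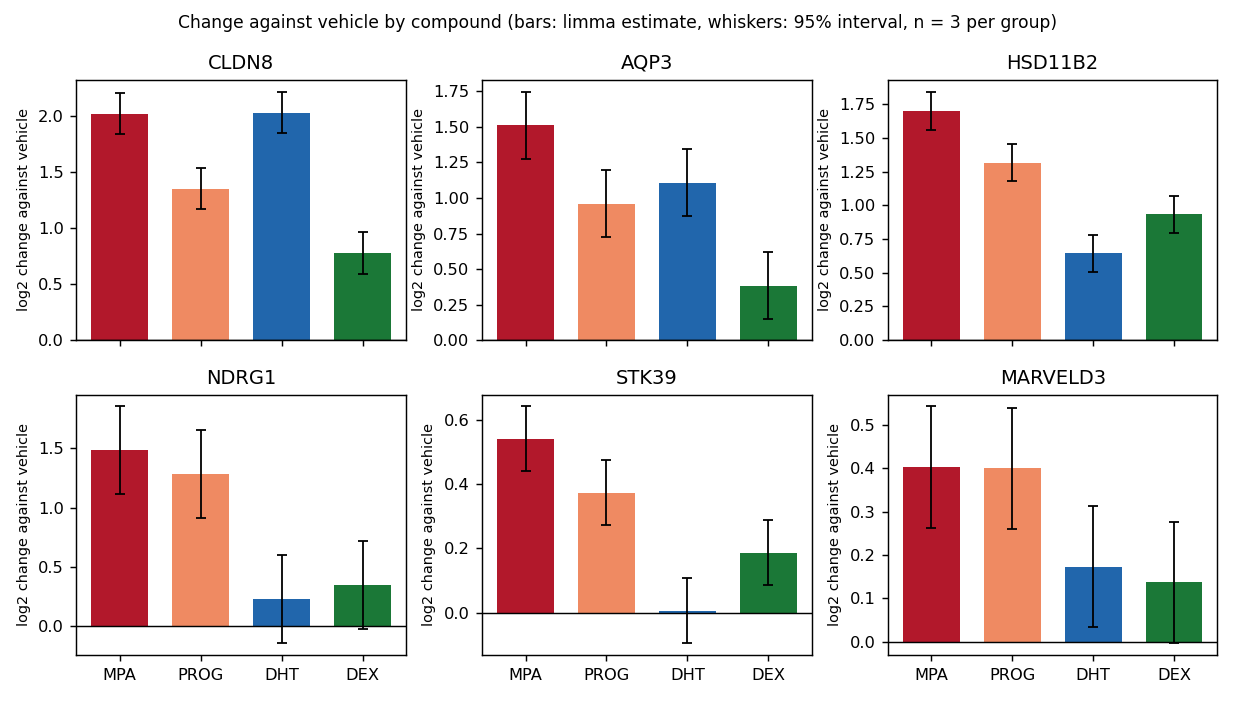
Log2 change against vehicle (bars, with 95% intervals, n = 3 arrays per group) for CLDN8, AQP3 and 4 called genes of the transport and junction lists. DHT stands at 2.03 in CLDN8 and 1.11 in AQP3, above PROG in both means, and below PROG in the other 4; the DHT and PROG difference is not called for AQP3 (adjusted p = 0.768) or MARVELD3 (adjusted p = 0.143).

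The nearest measured protein-coding genes were given by the gene table for each member. Beside CLDN8 on chromosome 21 lie CLDN17, MAP3K7CL, KRTAP24-1 and KRTAP25-1, all under the array medians and with no call. AQP7, the adjacent aquaglyceroporin gene on chromosome 9, was under the medians too, and CHMP5, NOL6 and UBE2R2 around AQP3 changed by at most 0.21 with MPA, without a call for any compound. Around SGK1 on chromosome 6 the genes TBPL1, TCF21 and HBS1L had no call. MYB, a transcription factor and proto-oncogene beyond HBS1L, had a log2 change of -0.24 ± 0.046 with MPA (adjusted p = 0.00427). Its DEX difference of -0.23 ± 0.046 (adjusted p = 0.0250) lost the call without DEX 1, DEX 3, vehicle 1 or vehicle 3. That call also ended in the fit of 2 groups only (adjusted p = 0.199) and with the replicate block (adjusted p = 0.0529).

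The labelled cell type was checked on its markers. All 9 measured luminal markers, among them EPCAM, GATA3, FOXA1 and KRT18, were over the array medians, and the 3 measured basal markers, KRT5, KRT14 and MYLK, were not. Of 2 fibroblast and 2 blood or endothelial markers, LUM (4.08 with vehicle) and CD68 (7.59 with vehicle) were over the medians, with no call for any compound. The mean log2 level over the luminal list was 9.38 to 9.41 on the vehicle arrays, 9.31 to 9.37 with MPA, 9.36 to 9.40 with PROG, 9.38 to 9.46 with DHT and 9.36 to 9.48 with DEX. Within it, KRT19 (9.67 with vehicle, 10.05 with MPA) was called higher with all 4 compounds. ESR1, the estrogen receptor (8.05 with vehicle, 7.28 with MPA), was called lower with MPA, PROG and DHT, and FOXA1 (10.09 with vehicle, 9.78 with MPA) with MPA. The part of these shifts in the changes of CLDN8 and AQP3 was not tested. Arrays of 1 group correlated with r = 0.997 to 0.998 over all 34878 probe sets. In bulk RNA a change in the number of cells that express a gene and a change per cell cannot be told apart.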

How the data were processed

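Total RNA of ZR-75-1 cells was amplified, labelled with biotin and hybridised to Affymetrix arrays, per the labels' protocols. The deposited table holds log2 expression values with 1 column per array, 15 in all, and 34878 probe sets. The submitters' processing notes name Partek and RMA without versions, and other settings and the build are not stated in the sources used here. Such summarisation sets arrays to like distributions and can compress changes of dim probe sets. The number of arrays limits the precision.

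Probe sets were named from the platform annotation, and all 14841 symbols were updated by gene ID through a RefSeq table (GRCh38.p14). limma 3.58.1 in R 4.3.3 fitted 5 group means over the 15 arrays to the named probe sets (lmFit, eBayes, 10 residual degrees of freedom, prior 3.81), 2-sided, with Benjamini-Hochberg adjustment over 14841 probe sets within each of 10 contrasts. The code was tested on simulated data. The genes named are the 3 members, list genes called against vehicle, the 2 nearest measured protein-coding genes on each side, and the 3 other genes most alike over the arrays; where a gene had several probe sets, that with the highest mean was used. Members and lists were chosen, and the TATAAA motif added, with earlier results of these data known. Same-numbered arrays of different groups did not deviate together (r = -0.054 to 0.067 over 30 pairs of arrays), so no block was used. Alternatives were quantile normalization, median centring, a filter on dim probe sets, testing all probe sets, eBayes with trend or robust, fits of 2 groups only, the replicate block, averaged probe sets and leaving out each array.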

Additional observations from a re-analysis of the deposited data

How the results depend on the processing

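Over the alternatives run, the call and direction of the members were kept in 381 of 410 values, 137 of 140 for CLDN8, 128 of 140 for AQP3 and 116 of 130 for SGK1, which the filter on dim probe sets leaves out. Fits of 2 groups only have fewer arrays behind the spread and ended the calls of AQP3 for DHT minus DEX (0.72) and of SGK1 for MPA minus DEX (0.30), MPA minus vehicle (0.27) and PROG minus vehicle (0.38). AQP3 gained a call for MPA minus DHT with the dim filter or the eBayes trend (0.40) or quantile normalization (0.40), and for MPA minus PROG with the same settings (0.55, 0.55 and 0.56) and the fit of 2 groups (0.55). The cause was not tested. Leaving out 1 array gave AQP3 ranges of 0.32 to 0.52 for MPA minus DHT and 0.49 to 0.65 for PROG minus DEX. For SGK1 the ranges were 0.19 to 0.31 for MPA minus vehicle, 0.26 to 0.34 for MPA minus DEX and 0.27 to 0.35 for MPA minus DHT. Differences near 0 changed sign. These were CLDN8 MPA minus DHT (-0.08 to 0.035), SGK1 DEX minus vehicle (-0.11 to 0.0083), SGK1 DHT minus DEX (-0.032 to 0.023) and STK39 DHT minus vehicle (-0.015 to 0.037 without 1 array, and -0.000333 with quantile normalization). The replicate number shared by the titles was also fitted as a replicate block, which changed no call of a member (CLDN8 MPA minus PROG 0.67, adjusted p = 0.00644) but, against vehicle, ended those of CLDN7 with PROG (0.16), PARD6A with MPA, MYB with DEX and TTI1 with DHT and gave STK39 one with DEX, as did the eBayes trend. Of 600 counts of list calls 566 stayed within 1.5 times, and those that moved were 1 or 2 genes. Counts of all called probe sets moved more, lowest in fits of 2 groups, from 880 to 526 for MPA, 419 to 255 for PROG, 132 to 54 for DHT and 164 to 44 for DEX against vehicle, and between compounds from 43 to 7 for MPA and PROG, 521 to 292 for MPA and DHT, 602 to 285 for MPA and DEX, 254 to 146 for PROG and DHT, 211 to 122 for PROG and DEX and 97 to 39 for DHT and DEX. Leaving out 1 array moved some by over 1.5 times too, to 257 without PROG 2 for PROG, as low as 66 for DHT (without DHT 1, DHT 2 or vehicle 2), 78 for DEX (without any of these arrays except DEX 1), 17 for MPA minus PROG (without PROG 1, PROG 3 or MPA 3), 62 for DHT minus DEX (without DHT 1 or DHT 2) and 168 for PROG minus DHT (without DHT 1 or PROG 2). The background shares beside the members rest on these counts. The eBayes trend took DHT to 220, DHT minus DEX to 166 and MPA minus PROG to 71. Signal over background limits SGK1, whose arrays all lie under the array medians.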
